A study of Macaca nemestrina with 58 samples.

Results

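The 9 genes named here belong to the immediate early and stress response and were followed in vaginal pinch biopsies of pig-tailed macaques: FOS, FOSB, JUN, JUNB, EGR1, ATF3, GADD45B, DDIT4 and RGS2. Members were taken by gene symbol, as probe sets that the array annotation gives that 1 symbol. Of the 9 genes, 6 had such a probe set, out of 14132 genes named this way on the array. These 6 were FOS, JUNB, ATF3, GADD45B, DDIT4 and RGS2, with 11 probe sets in all, of which 10 passed the filter on low values and were tested. The 11th, a second additional probe set of ATF3, had a mean log2 value of 5.41 over the samples and stayed under the filter at 5.53. FOSB, JUN and EGR1 were not analysed here. Each gene was represented by its kept probe set with the highest mean, and the other probe sets were read beside it.

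The study measured RNA of 15 animals on arrays designed for the rhesus macaque, a related species. Of these animals, 9 received injections of DMPA, the progestin depot medroxyprogesterone acetate, and 6 received the treatment labelled LNG (levonorgestrel, a progestin), which the design text describes as a combined oral contraceptive. The untreated baseline comprised 28 samples, of which the menstrual cycle phase was early follicular for 10, late follicular for 5, early luteal for 4 and late luteal for 9; 13 animals gave 2 baseline biopsies and 2 animals gave 1. After DMPA, 8 biopsies carried the time label 1D4 and 9 the label 2D2, at doses labelled 0.5, 1.5 and 2.5 with no unit. After LNG, 6 biopsies carried the time label 5th and 6 the label 7th, from 3 animals labelled High and 3 labelled Low. The design text places post-treatment biopsies 2 weeks after the second DMPA injection and 5 weeks after the first oral dose, without tying these to the time labels. The mark (A-), on 1 array at the 5th and 4 arrays at the 7th time, has no explanation in the labels. Every treated animal was compared with its own baseline, and no animal stayed untreated at the later times, so the effects of the drug, of time and of taking several biopsies cannot be told apart.

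Immediate early genes are transcribed within minutes of a stimulus, without new protein synthesis, when growth factor, stress or wounding signals reach the MAP kinases and the serum response factor. FOS and JUN family proteins pair into the AP-1 transcription factor, which in squamous epithelium takes part in keratinocyte differentiation, and their RNA decays quickly once the signal ends. Surgery and tissue handling are known to switch on the same genes, and steroid hormones act on several of the stress genes, DDIT4 and RGS2 among them.

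Values are log2 array intensities, so a difference of 1 is a doubling of the array signal, and errors of log2 differences are standard errors (SE) of a linear model with the animal as a block. A probe set passed at a limma adjusted p under 0.05 over all 31624 probe sets tested. In these bulk biopsies, fewer cells of a type and less RNA per cell cannot be told apart. The mean log2 level of the squamous epithelium markers (13 of the 14 listed symbols measured) ranged from 7.06 to 12.7 at 1D4 and from 6.82 to 11.8 at 2D2, against 8.41 to 13.1 at baseline. At LNG the same markers ranged from 6.89 to 13.0 at the 5th and from 6.98 to 12.8 at the 7th time. The stroma score, a mean over fibroblast and smooth muscle markers, ranged from 7.64 to 12.5 at 1D4 and from 7.19 to 12.2 at 2D2, against 6.96 to 11.4 at baseline. RNA quality, read as the 3' minus 5' log2 difference of the GAPDH control probe sets, which grows as RNA is broken, averaged 1.99 ± 0.35 (SD, n = 8) at 1D4 and 2.43 ± 0.70 (n = 9) at 2D2, against 1.66 ± 0.31 (n = 28) at baseline.

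FOS, the AP-1 subunit, had the widest group means of the 6 genes: 10.12 ± 1.03 in the early follicular, 9.16 ± 0.64 in the late follicular, 9.79 ± 0.95 in the early luteal and 9.81 ± 1.24 in the late luteal phase (SD; n = 10, 5, 4 and 9), then 9.12 ± 0.94 at DMPA 1D4 (n = 8), 11.05 ± 0.86 at DMPA 2D2 (n = 9), 9.39 ± 0.89 at LNG 5th and 8.74 ± 1.17 at LNG 7th (n = 6 each). In order of level, LNG 7th was lowest and DMPA 2D2 highest. The groups hold different animals, so this order is not a comparison within animals. Untreated FOS baseline means already averaged 10.23 ± 0.67 (SD, n = 9) in the DMPA animals and 9.08 ± 0.65 (n = 6) in the LNG animals. Each neighbour in that order differed by less than the smaller of their SDs, except DMPA 2D2, which stood 0.94 above the early follicular phase, 1.10 times the smaller SD. JUNB, the AP-1 partner of the JUN family, was lowest at LNG 5th (10.05 ± 0.94) and DMPA 1D4 (10.07 ± 0.50) and highest in the early follicular phase (10.86 ± 0.24). ATF3, a stress-induced factor of the ATF/CREB family, ran from 7.08 ± 0.48 at LNG 7th to 7.70 ± 0.46 in the early luteal phase. For JUNB and ATF3 no neighbours in the order differed by more than the smaller SD.

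GADD45B, which binds and activates a kinase upstream of p38 and JNK, was lowest in both DMPA groups, 8.81 ± 0.39 at 2D2 and 8.85 ± 0.43 at 1D4, and highest in the early follicular phase at 9.47 ± 0.38. DDIT4, also called REDD1, an inhibitor of mTORC1 signaling, was lowest in the late follicular phase at 9.53 ± 0.23, and its means at DMPA 1D4 (10.27 ± 0.53) and 2D2 (10.44 ± 0.48) were the highest. RGS2, which ends signaling by the Gq class of G proteins, was likewise lowest in the late follicular phase at 8.96 ± 0.33 and highest at DMPA 1D4 (10.35 ± 0.60) and 2D2 (10.81 ± 0.90). The only neighbours among these 3 genes that were further apart than the smaller SD were the late and early follicular phases for RGS2, 0.34 apart.

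**Figure D1:**
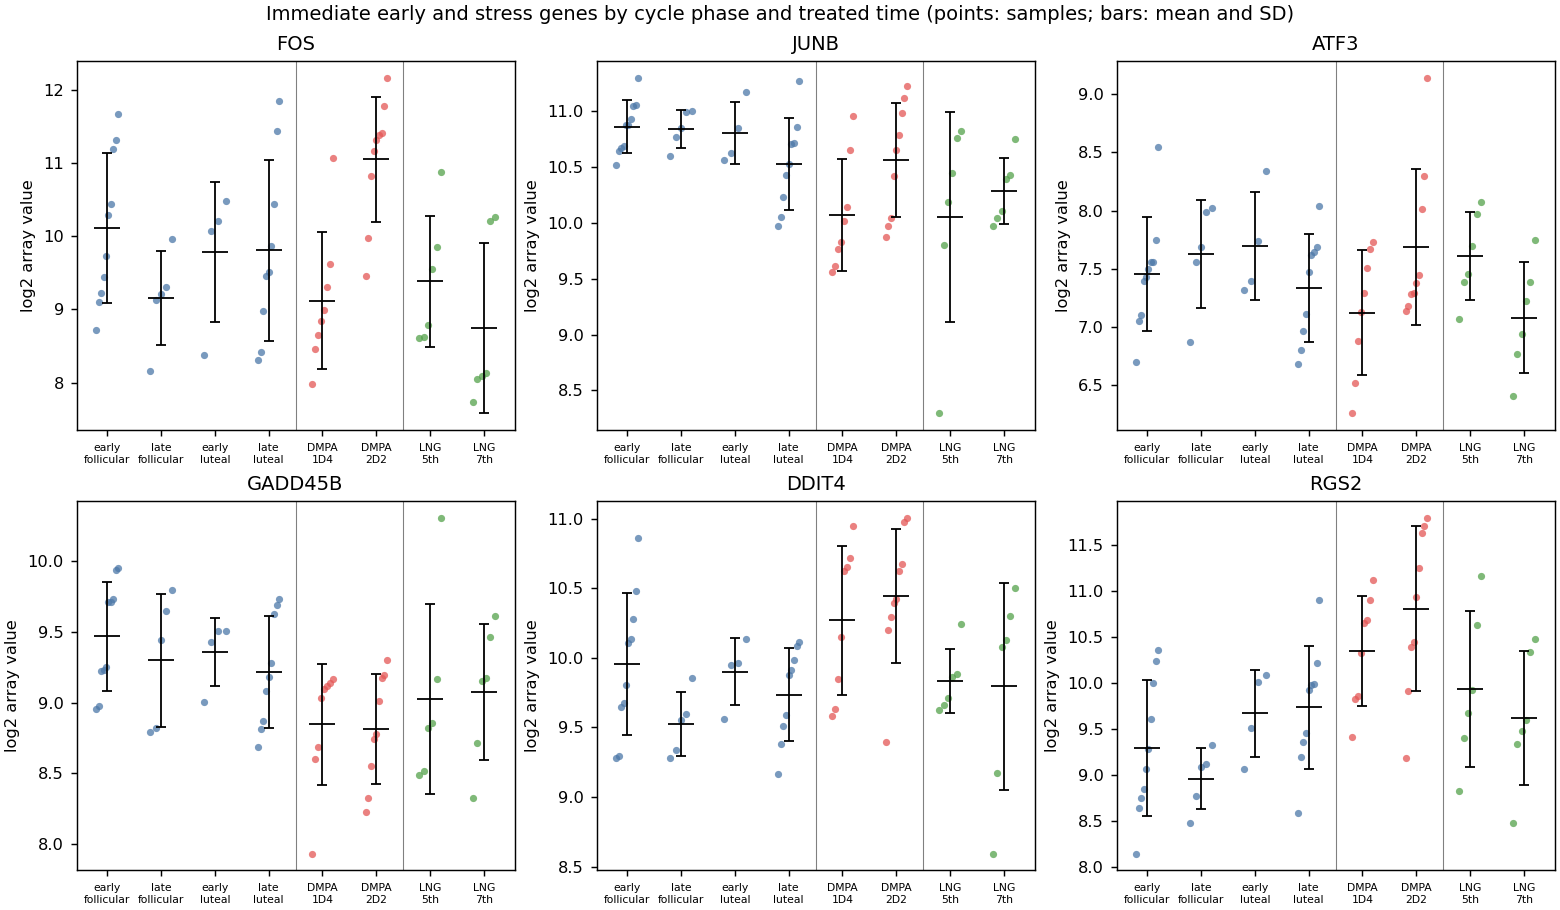
Log2 array value (y axis) of the 6 measured genes by group (x axis), with 1 point per sample and a bar at the mean ± SD. FOS peaks at DMPA 2D2 with a mean of 11.05, and RGS2 and DDIT4 are highest in the 2 DMPA groups, where GADD45B is lowest.

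Within the untreated baseline, 2 biopsies of the same animal in different phases differed widely for some of these genes and little for others. Over the 13 animals with 2 baseline biopsies, the within-animal SD was 0.81 for FOS, 0.69 for RGS2 and 0.54 for ATF3, larger than in 93.7%, 90.5% and 83.4% of all tested probe sets, whose median was 0.30. JUNB (0.30), GADD45B (0.31) and DDIT4 (0.38) lay nearer to that median. Animal PPi2 had a FOS value of 11.86 in the late luteal and 9.23 in the early follicular phase, and PHQ1 had 9.13 in the late follicular and 11.32 in the early follicular phase. BB537 had 2 late follicular arrays, and the labels do not say whether both came from the same biopsy. The one labelled as a duplicate differed from its partner by -0.74 for FOS, -0.75 for ATF3, -0.59 for GADD45B, 0.84 for DDIT4 and 0.89 for RGS2. The SD of that difference over all tested probe sets was 0.49, and JUNB differed by -0.11.

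None of the 6 genes passed between cycle phases. Of all tested probe sets, 3.04% passed between the luteal and follicular phases, 0.152% between the late luteal and early follicular phases and 0.768% in the test over all 4 phases. RGS2, between the luteal and follicular phases, and GADD45B, between the late luteal and early follicular phases, had the lowest adjusted p of the 6 genes. RGS2 values were 9.07, 9.51, 10.01 and 10.09 in the early luteal phase and 8.59 to 10.91 (median 9.93) in the late luteal phase, against 8.48, 8.77, 9.09, 9.12 and 9.32 in the late follicular phase and 8.14 to 10.36 (median 9.18) in the early follicular phase. The groups overlapped, although only 1 of the 4 early luteal samples lay within the late follicular range. The luteal minus follicular difference was 0.68 ± 0.27 (limma adjusted p = 0.146), and the second RGS2 probe set gave 0.37 ± 0.20 (adjusted p = 0.262). Among animals with both phases, RGS2 was higher in the early luteal than in the early follicular phase in 3 of 3, by 0.0057 to 1.369, in the late luteal than in the late follicular phase in 2 of 2, and in the late luteal than in the early follicular phase in 4 of 6, by -0.32 to 2.27.

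GADD45B was lower in the late luteal than in the early follicular phase in 6 of the 6 animals that had both, by 0.09 to 0.77. Its late luteal values ran from 8.69 to 9.73 (median 9.18) and its early follicular values from 8.96 to 9.95 (median 9.48), so the groups overlapped. The fitted difference was -0.38 ± 0.14 (limma adjusted p = 0.138), and the other GADD45B probe sets gave -0.43 ± 0.18 and -0.46 ± 0.14 (adjusted p = 0.190 and 0.103). GADD45B did not differ this way between luteal and follicular phases as a whole, at 0.003 ± 0.12. The FOS luteal minus follicular difference was 0.13 ± 0.39 (limma adjusted p = 0.865, 95% interval -0.72 to 0.97). JUNB had -0.16 ± 0.13, ATF3 0.04 ± 0.26 and DDIT4 -0.08 ± 0.18, with adjusted p between 0.446 and 0.938.

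Between the DMPA times no probe set of the array passed (0% of 31624 in limma, 1655 at an unadjusted p under 0.05), so neither did any of the 6 genes. FOS nevertheless moved one way in every animal. It ran from 9.46 to 12.17 (median 11.32) at 2D2, against 7.97 to 11.07 (median 8.92) at 1D4. The groups overlapped: the 1D4 samples of BB405 (9.63) and BB521 (11.07) lay above the lowest 2D2 sample. Within animals, 2D2 minus 1D4 was 4.19 in PHQ1, 2.51 in BB0540, 2.47 in BB770, 2.11 in PPi2, 1.51 in BB0499, 1.20 in BB405, 0.46 in BB981 and 0.31 in BB521. All 8 differences were positive, and the exact two-sided sign-flip permutation p was 0.0078, the smallest that 8 animals can give. The fitted difference was 1.86 ± 0.42 (limma adjusted p = 0.827), a 3.64-fold higher signal at 2D2, and its p ranked second among all probe sets tested. Over the alternatives and left-out animals, the adjusted p ran from 0.0665 to 1.00 and the difference stayed between 1.55 (without PHQ1) and 2.09.

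JUNB, the other AP-1 subunit measured, was also higher at 2D2 than at 1D4 in 8 of 8 animals (exact sign-flip p = 0.0078), though by only 0.02 in BB521 and 0.04 in BB0540. It ran from 9.87 to 11.23 (median 10.65) at 2D2 and from 9.56 to 10.96 (median 9.92) at 1D4, and the groups overlapped over most of their range. The difference was 0.49 ± 0.22 (limma adjusted p = 0.947) and rested in part on PHQ1, where it was 1.67; the next largest was 0.51, and without PHQ1 the fit gave 0.32. ATF3 ran from 7.14 to 9.14 (median 7.38) at 2D2 and from 6.26 to 7.73 (median 7.21) at 1D4. It was higher in 5 of 8 animals, with a difference of 0.54 ± 0.25 (limma adjusted p = 0.947), and again PHQ1 had the largest, 2.88; without PHQ1 the fit gave 0.23. The ATF3 probe sets differed among themselves. The second tested one gave 0.03 ± 0.10 and did not follow the first over the samples (r = -0.05, n = 57). The third, under the filter, followed it in part (r = 0.56) and, in a fit without the filter, gave 0.71 ± 0.18 (limma adjusted p = 0.768).

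RGS2 ran from 9.18 to 11.80 (median 10.93) at 2D2 and from 9.41 to 11.12 (median 10.49) at 1D4. It was higher at 2D2 in 7 of 8 animals (mean difference 0.51 ± 0.41, SD; exact sign-flip p = 0.023), all but BB770, while the fit gave 0.43 ± 0.33 (limma adjusted p = 0.984). With the GAPDH 3' minus 5' difference as a covariate the fitted value was -0.14. The second RGS2 probe set was higher at 2D2 in only 4 of 8 animals (mean difference 0.195 ± 0.46, SD), with an exact sign-flip p of 0.266. Its fitted difference was 0.15 ± 0.20. DDIT4 differed by 0.11 ± 0.19 (95% interval -0.27 to 0.50), with 5 of 8 animals higher, and GADD45B by -0.02 ± 0.18 (-0.39 to 0.34), with 3 of 8 higher. Of the tissue measures, the squamous markers were lower at 2D2 than at 1D4 in 7 of 8 animals (mean -0.78 ± 0.91, SD; exact p = 0.016), the stroma score was lower in 6 of 8 (mean -1.23 ± 1.96; exact p = 0.117) and the GAPDH difference was higher in 6 of 8 (mean 0.48 ± 0.69; exact p = 0.086). The FOS difference was 1.86 when the GAPDH difference was added to the model and 1.64 when the stroma score was; the part of the squamous markers was not tested.

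**Figure D2:**
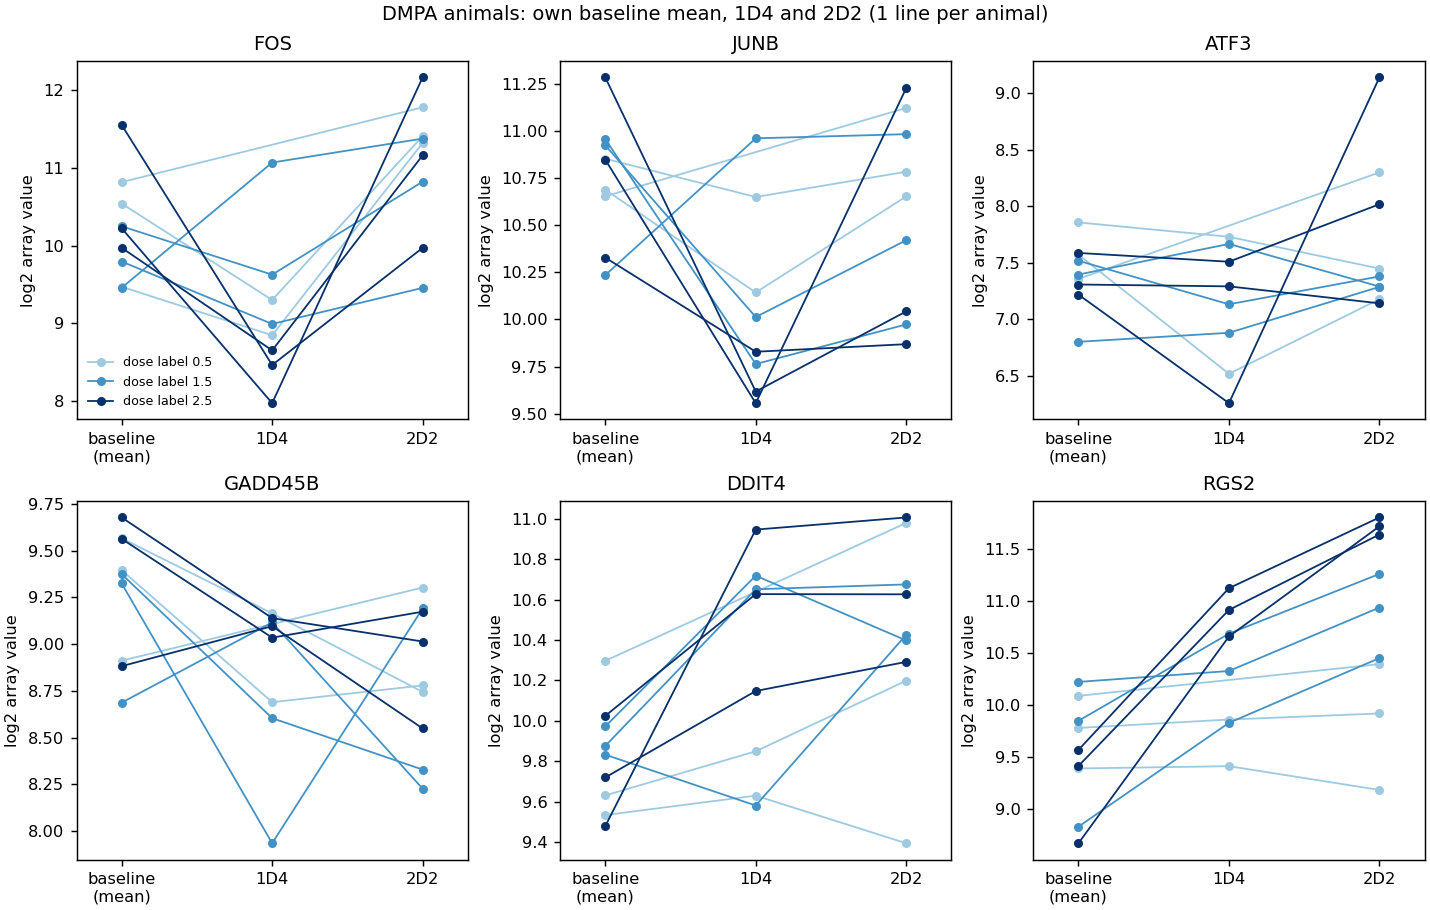
Log2 array value (y axis) of each gene in the 9 DMPA animals at the mean of their own baseline biopsies, at 1D4 and at 2D2 (x axis), with 1 line per animal coloured by labelled dose; BB108 has no 1D4 sample and its line passes from baseline to 2D2. FOS and JUNB are higher at 2D2 than at 1D4 in all 8 animals with both times.

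Set against the animals' own baseline, 5 of the 6 genes differed at 1D4 and 3 at 2D2, in a setting where 23.2% and 28.1% of all tested probe sets passed (11.3% higher and 11.9% lower at 1D4, 16% higher and 12.1% lower at 2D2). At 1D4, 7 of the 10 tested probe sets passed, and at 2D2 6 of 10. RGS2 and DDIT4 were higher at both times and GADD45B was lower at both. FOS and JUNB were lower at 1D4 and did not pass at 2D2. ATF3 passed at neither time. Over the animals, the exact sign-flip p at 1D4 was 0.078 for FOS, 0.047 for JUNB and 0.0625 for GADD45B. It was 0.031 for DDIT4 and 0.0078 for RGS2. At 2D2 the exact sign-flip p was 0.078 for FOS, 0.020 for GADD45B, 0.0078 for DDIT4 and 0.012 for RGS2.

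FOS at 1D4 was 1.11 ± 0.37 below baseline on the log2 scale (limma adjusted p = 0.029), a 2.17-fold lower signal, and was lower in 7 of 8 animals. The exception was BB521, which stood 1.61 above its baseline. The 1D4 range (7.97 to 11.07, median 8.92) and the baseline range (8.16 to 11.86, median 9.62) overlapped, with the lowest 1D4 sample below every baseline sample. At 2D2 FOS was 0.75 ± 0.35 above baseline, with 7 of 9 animals higher and an adjusted p of 0.104. The 1D4 call was lost without BB0499 (-0.83, adjusted p = 0.125), BB0540 (-1.08, 0.066), BB981 (-1.16, 0.052) or PHQ1 (-0.94, 0.085), and the 2D2 difference passed without BB0499 (1.05, adjusted p = 0.031). Without the animal block FOS was 0.68 lower at 1D4 (adjusted p = 0.195) and 1.25 higher at 2D2 (adjusted p = 0.010).

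JUNB was 0.72 ± 0.20 lower at 1D4 than at baseline (limma adjusted p = 0.012), lower in 7 of 8 animals, with BB521 again the exception. At 2D2 its difference from baseline was -0.23 ± 0.19 (adjusted p = 0.362), and 6 of 9 animals were lower. The JUNB call was lost without BB0499 (-0.58, adjusted p = 0.060). ATF3 stood at -0.27 ± 0.22 at 1D4 and 0.27 ± 0.21 at 2D2 (limma adjusted p = 0.376 and 0.331), with 6 of 8 animals lower at 1D4 and 4 of 9 higher at 2D2. PHQ1, the animal with the largest FOS and JUNB differences between the times, stood 1.92 above its ATF3 baseline at 2D2, and without it the ATF3 difference at 2D2 was 0.067.

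GADD45B was 0.44 ± 0.16 lower at 1D4 (limma adjusted p = 0.040; 6 of 8 animals) and 0.47 ± 0.15 lower at 2D2 (adjusted p = 0.019; 8 of 9 animals) than at baseline. Its other probe sets gave -0.47 ± 0.19 and -0.54 ± 0.16 at 1D4 and -0.53 ± 0.18 and -0.61 ± 0.15 at 2D2; the first of these did not pass at 1D4 (adjusted p = 0.068). The values ran from 8.23 to 9.30 (median 8.78) at 2D2 and from 7.94 to 9.16 (median 9.07) at 1D4, against 8.69 to 9.95 (median 9.35) at baseline, so every sample of both DMPA times lay below the baseline median. The 1D4 call was lost without BB405 (-0.30, adjusted p = 0.163), BB0499 (-0.43, 0.087), BB0540 (-0.43, 0.085), BB981 (-0.40, 0.111) or PPi2 (-0.41, 0.073), and the 2D2 call without BB0540 (-0.44, 0.055) or BB981 (-0.39, 0.081).

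DDIT4 was 0.50 ± 0.17 higher at 1D4 (limma adjusted p = 0.030; 7 of 8 animals) and 0.62 ± 0.16 higher at 2D2 (adjusted p = 0.0049; 8 of 9 animals) than at baseline, a 1.42-fold and a 1.53-fold higher signal. It ran from 9.40 to 11.01 (median 10.43) at 2D2 and from 9.58 to 10.95 (median 10.39) at 1D4, against 9.16 to 10.86 (median 9.83) at baseline. The ranges of treated and baseline samples overlapped over most of their width. The 1D4 call was lost without BB0499 (0.49, adjusted p = 0.077), BB405 (0.47, 0.072), BB521 (0.48, 0.059) or PHQ1 (0.36, 0.138).

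RGS2 gave the largest rise of the 6 genes at 2D2, 1.30 ± 0.28 (limma adjusted p = 0.0011; 8 of 9 animals), a 2.46-fold higher signal. The largest rise in an animal was 3.05 in BB0540, whose 2D2 array had the highest GAPDH difference of all samples, 3.98. At dose label 0.5, BB108, BB770 and PPi2 changed by 0.30, -0.21 and 0.14. Leaving out 1 animal kept the fitted rise between 1.08 and 1.50. At 1D4 RGS2 was 0.87 ± 0.29 higher (adjusted p = 0.030; 8 of 8 animals), a 1.83-fold higher signal, though by only 0.02 in BB770, 0.08 in PPi2 and 0.10 in BB521. The second RGS2 probe set, which followed the first over the samples (r = 0.89, n = 57), gave 0.51 ± 0.18 at 1D4 and 0.66 ± 0.17 at 2D2 and passed at both (adjusted p = 0.037 and 0.0047). It was higher than baseline in 6 of 8 animals at 1D4 and in 8 of 9 at 2D2. Against a baseline of 8.14 to 10.91 (median 9.34), 5 of the 9 samples at 2D2 and 2 of the 8 at 1D4 lay above every baseline sample. The 1D4 call was lost without BB0499 (0.78, adjusted p = 0.088), BB0540 (0.71, 0.093), BB405 (0.88, 0.055), BB981 (0.86, 0.068) or PHQ1 (0.78, 0.084).

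RNA quality and tissue content moved with these differences. Against their own baseline, the squamous markers were lower in 7 of 8 animals at 1D4 (mean -3.22 ± 2.49, SD; exact sign-flip p = 0.023) and in 8 of 9 at 2D2 (mean -3.94 ± 2.27; exact p = 0.0078). The GAPDH difference was higher in 6 of 8 animals at 1D4 and in 8 of 9 at 2D2 (exact p = 0.094 and 0.0078). Once the GAPDH difference was a covariate, none of the 8 calls of the 6 genes remained (limma adjusted p between 0.070 and 0.168 at 1D4 and between 0.531 and 0.726 at 2D2). The differences themselves moved unequally. At 1D4 they were then -1.12 for FOS, -0.55 for JUNB, -0.39 for GADD45B, 0.44 for DDIT4 and 0.50 for RGS2, all but that of RGS2 within 1.5 times the values above. At 2D2 they were -0.34 for GADD45B, 0.45 for DDIT4 and 0.35 for RGS2, of which only that of RGS2 moved by more than 1.5 times. In the same fits the calls over all probe sets came to 1631 at 1D4 and 0 at 2D2, against 7334 and 8874 without the covariate. The stroma score exceeded baseline in 6 of 8 animals at 1D4 (mean 1.40 ± 1.41; exact p = 0.039) and in 3 of 9 at 2D2 (mean 0.12 ± 1.88; exact p = 0.863). With it as a covariate all 5 calls at 1D4 were lost (limma adjusted p between 0.104 and 0.268), with 57 calls over all probe sets, while the 3 at 2D2 held. The 1D4 differences were then -0.85 for FOS, -0.45 for JUNB, -0.40 for GADD45B, 0.54 for DDIT4 and 0.55 for RGS2. The part of the squamous markers was not tested.

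**Figure D3:**
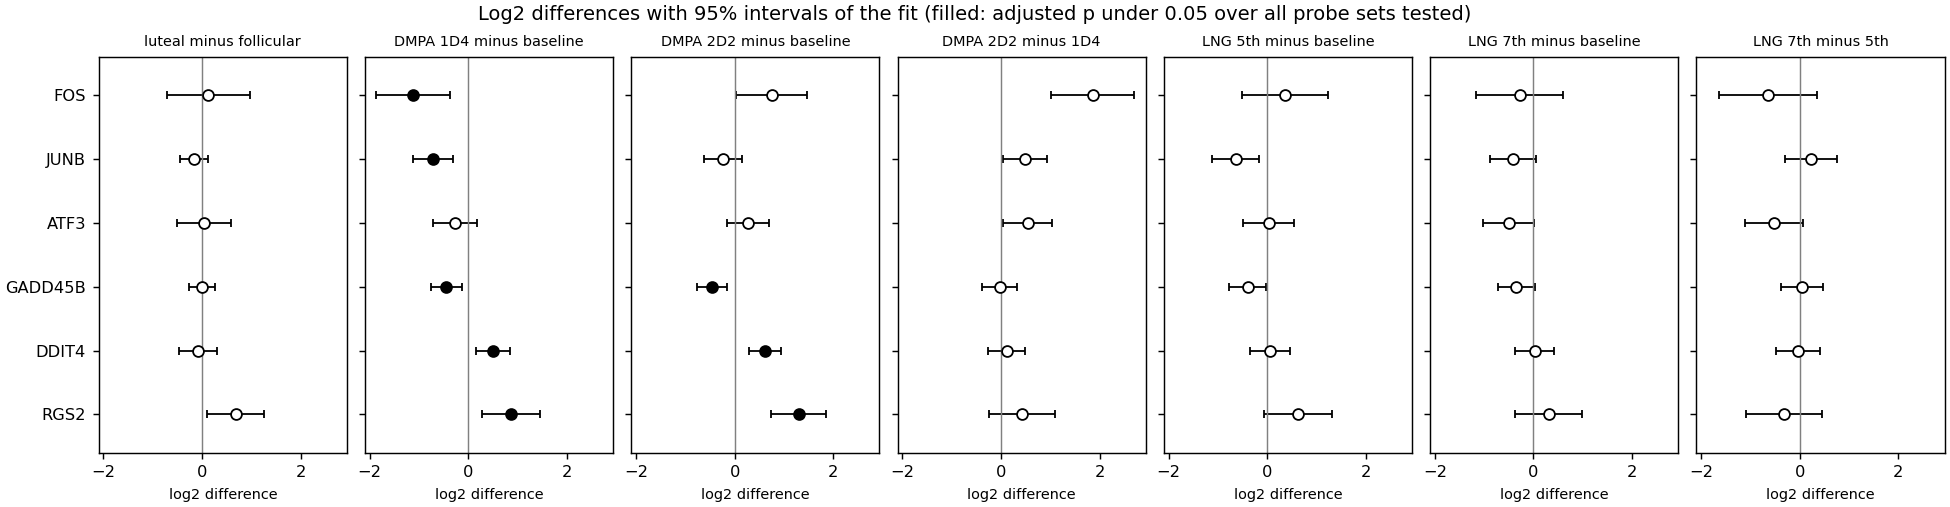
Fitted log2 differences (x axis) of the 6 genes (rows) in 7 comparisons (panels), with 95% intervals; filled points passed at an adjusted p under 0.05 over all probe sets tested. Filled points occur in the 2 comparisons of DMPA with baseline only, 5 at 1D4 and 3 at 2D2, and the FOS difference of 1.86 between the DMPA times is open.

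RGS2 also followed the labelled DMPA dose, without passing. At 2D2 its values were 9.18, 9.92 and 10.39 in the animals labelled 0.5 and 10.45, 10.93 and 11.26 in those labelled 1.5. Those labelled 2.5 had 11.64, 11.71 and 11.80, so the 3 dose groups did not overlap in this probe set. At 1D4 its values were 9.41 and 9.86 at dose label 0.5, 9.83, 10.32 and 10.68 at 1.5, and 10.66, 10.91 and 11.12 at 2.5, with slight overlap. The same animals' baseline means were 9.39, 9.78 and 10.09 for the label 0.5, 8.83, 9.85 and 10.22 for 1.5, and 8.67, 9.41 and 9.57 for 2.5, and overlapped. The fitted slope was 1.21 ± 0.27 log2 units per unit of labelled dose at 2D2 (limma adjusted p = 0.421) and 0.81 ± 0.30 at 1D4 (adjusted p = 0.271). In the second RGS2 probe set the 2D2 values were 6.80, 6.84 and 7.27 at the label 1.5 and 6.82, 7.09 and 7.35 at 2.5, which overlapped. Those at 0.5 were lower, at 5.95, 6.20 and 6.62. The slope of that probe set at 2D2 was 0.62 ± 0.18. In these tests 0.00949% of probe sets passed at 2D2 and 0% at 1D4 (limma; 4101 at an unadjusted p under 0.05 at 1D4). RNA quality and squamous markers also differed among the dose labels, with overlap. At 2D2 the GAPDH difference averaged 2.07, 2.23 and 2.98 and the squamous mean 10.12, 7.23 and 7.12 at the labels 0.5, 1.5 and 2.5. In the same order, the GAPDH difference ran from 1.39 to 2.67, 2.17 to 2.27 and 2.22 to 3.98, the last in BB0540. The squamous mean ran from 7.28 to 11.8, 6.82 to 7.69 and 6.82 to 7.47. With the GAPDH difference as a covariate the RGS2 slope was 0.73 (adjusted p = 1.00). The slopes of the other 5 genes at 2D2 lay between -0.36 (FOS) and 0.34 (ATF3), with adjusted p between 0.654 and 0.940.

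**Figure D4:**
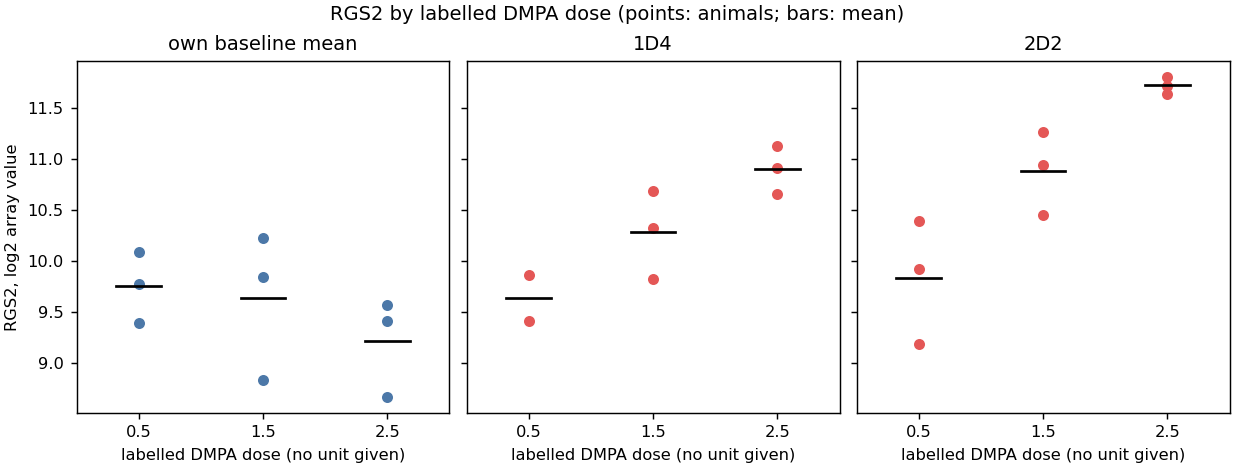
RGS2 log2 array value (y axis) against the labelled DMPA dose, which has no unit (x axis), as the animals' own baseline mean, at 1D4 and at 2D2; points are animals and bars are means. At 2D2 the 3 dose groups do not overlap, while the baseline means of the same animals overlap. In the second RGS2 probe set, which is not shown, the groups labelled 1.5 and 2.5 overlap at 2D2.

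Between the LNG times no probe set passed either (0% in limma, 946 at an unadjusted p under 0.05). ATF3 was lower at the 7th than at the 5th time in 6 of 6 animals, by 0.23 to 1.03 (exact sign-flip p = 0.031, the smallest that 6 animals can give). Its values ran from 6.41 to 7.75 (median 7.08) at the 7th and from 7.07 to 8.08 (median 7.58) at the 5th time, and the groups overlapped. The fitted difference was -0.53 ± 0.29 (limma adjusted p = 1.00). With the 5 arrays marked (A-) left out, only BB967 and BB4800 kept both times, with ATF3 differences of -0.23 and -0.33. The fitted difference was then -0.01, in a fit that also used animals left with 1 treated time. With all arrays, the second tested probe set gave 0.003 and the third -0.21 ± 0.21.

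FOS at LNG did not repeat the one-way pattern of the DMPA animals. It ran from 7.73 to 10.26 (median 8.11) at the 7th and from 8.62 to 10.88 (median 9.18) at the 5th time, with 2 of 6 animals higher, BB173 and BB4800, both labelled Low. The other LNG animal labelled Low and all 3 labelled High were lower, by 0.71 to 2.75. The fitted difference was -0.64 ± 0.49 (limma adjusted p = 1.00), and it was -0.22 without BB967 and -1.10 without BB4800. JUNB differed by 0.23 ± 0.26, with 3 of 6 animals higher. BB4800 had a JUNB value of 8.29 at the 5th time, 1.51 below the next lowest animal, and 10.10 at the 7th. GADD45B (0.05 ± 0.21), DDIT4 (-0.04 ± 0.22) and RGS2 (-0.32 ± 0.39) had adjusted p of 1.00.

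Against baseline, 0% of probe sets passed at the 5th time (6828 at an unadjusted p under 0.05 in limma) and 0.00632% at the 7th, none of them of these genes. The nearest was JUNB at the 5th time, -0.64 ± 0.23 (limma adjusted p = 0.104), lower in 5 of 6 animals; it passed with the (A-) arrays left out (-0.81, adjusted p = 0.047) or without BB4870 (-0.81, 0.040), and was -0.29 (adjusted p = 0.739) without BB4800, whose value stood 2.32 below its baseline. At the 7th time JUNB and GADD45B were lower than baseline in 6 of 6 animals (exact sign-flip p = 0.031 each), with fitted differences of -0.41 ± 0.23 and -0.35 ± 0.19 (limma adjusted p = 0.269 and 0.243). Without BB173 the GADD45B difference was -0.21. The other GADD45B probe sets, which followed the first over the samples (r = 0.89 and 0.85), were lower in 5 of 6 and 3 of 6 animals (exact p = 0.406 and 0.312), at -0.21 ± 0.22 and -0.11 ± 0.18. RGS2 stood 0.62 ± 0.34 above baseline at the 5th time and 0.31 ± 0.34 at the 7th (adjusted p = 0.282 and 0.599). BB4800 stood 2.40 and 1.71 above its RGS2 baseline at these times, and without it the differences were 0.25 and 0.0019; without BB269 the 7th-time difference was 0.60. The second RGS2 probe set was higher than baseline in 6 of 6 animals at both times (exact p = 0.031 each; limma adjusted p = 0.176 and 0.299). DDIT4 differed by 0.06 ± 0.20 (95% interval -0.34 to 0.46) and 0.02 ± 0.20 (-0.38 to 0.42). The squamous markers were lower than baseline in 6 of 6 animals at the 7th time (exact p = 0.031) and the GAPDH difference was higher in 6 of 6. The stroma score was higher than baseline in 6 of 6 animals at the 7th time (mean 1.40 ± 1.54, SD, exact sign-flip p = 0.031). At the 5th time it was higher in 5 of 6 (mean 2.07 ± 1.22, exact sign-flip p = 0.0625). BB4800 had the highest stroma score (12.63) and the lowest squamous mean (6.89) of the samples at the 5th time. After adding the GAPDH difference to the model, the JUNB and GADD45B differences at the 7th time were -0.14 and -0.27; the part of the squamous markers was not tested.

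**Figure D5:**
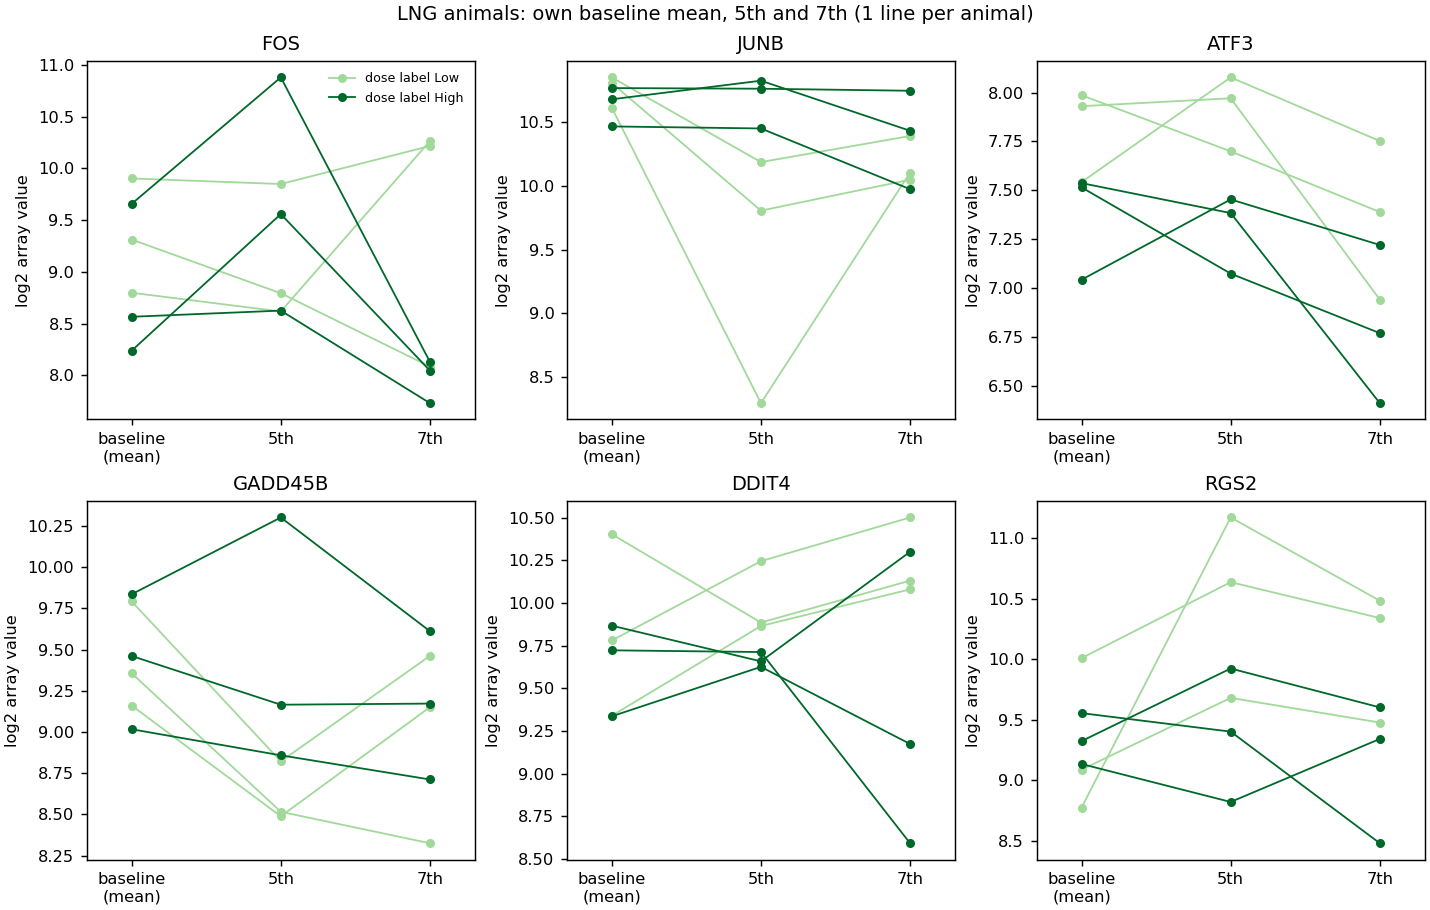
Log2 array value (y axis) of each gene in the 6 LNG animals at the mean of their own baseline biopsies, at the 5th and at the 7th time (x axis), with 1 line per animal coloured by the High or Low label. ATF3 is lower at the 7th than at the 5th time in all 6 animals, while FOS is higher in 2 and lower in 4.

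The change from baseline at DMPA 2D2 was also set against that at LNG 5th. No probe set passed (0% in limma, 2688 at an unadjusted p under 0.05), so a call at DMPA 2D2 and none at LNG 5th does not show that the arms differ. DDIT4 had the lowest adjusted p of the 6 genes, with a difference of 0.56 ± 0.25 (limma adjusted p = 0.556), and RGS2 had 0.68 ± 0.44 (adjusted p = 0.679). FOS, JUNB, ATF3 and GADD45B had differences between -0.07 and 0.41, with adjusted p between 0.716 and 0.956. Before treatment, FOS baseline means were 9.46 to 11.56 (median 10.22, mean 10.23 ± 0.67, SD) in the 9 DMPA animals. In the 6 LNG animals they were 8.24 to 9.90 (median 9.06, mean 9.08 ± 0.65). For this gene the DMPA animals were thus higher before any drug was given, with overlap only between 9.46 and 9.90.

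Genes related to these 6 were read from lists of the same pathways. Between the DMPA times none of 18 measured immediate early transcription factors, 22 feedback and secreted genes, 12 upstream kinases and factors, 16 stress genes, 8 regulators of G protein signaling or 13 glucocorticoid and progestin targets passed. The median difference of the lists lay between -0.05 and 0.11, with 0.03 over all 11199 named genes. The 6 genes described here had a median of 0.46, from -0.02 (GADD45B) to 1.86 (FOS). They and the lists were chosen with earlier results of these data known, so setting these medians side by side tests nothing. DUSP1, a MAP kinase phosphatase induced with FOS and by glucocorticoids, had 1.12 ± 0.29 (limma adjusted p = 0.827). EGR2 and IER2, 2 other immediate early genes, had 0.29 ± 0.14 and 0.28 ± 0.15. The values pointed the other way for THBS1, a secreted matrix protein (-0.60 ± 0.28), SPRY4, an inhibitor of receptor kinase signaling (-0.50 ± 0.22), and CREB1 (-0.21 ± 0.11). In the RGS family RGS1 had 0.76 ± 0.36 and RGS16 0.45 ± 0.20, next to the 0.43 of RGS2.

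Between the LNG times none of the list genes passed, and the list medians lay between -0.16 and 0.01. NR4A1, an immediate early nuclear receptor, had -0.53 ± 0.28, and CCN1 and THBS1, both secreted early products, had -0.75 ± 0.47 and -0.75 ± 0.32. ID3 and ID1, inhibitors of helix-loop-helix factors, had 0.48 ± 0.23 and 0.41 ± 0.25. In the stress list TRIB1 had -0.53 ± 0.29.

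Between the luteal and follicular phases 5 list genes passed, all higher in the luteal phases, where 3.31% of all named genes passed in either direction. They were 1 of 18 immediate early transcription factors, KLF6 (0.42 ± 0.09, limma adjusted p = 0.037), 1 of 22 feedback and secreted genes, ZFP36L2, an RNA-decay factor (0.55 ± 0.11, adjusted p = 0.035), and 3 of 13 glucocorticoid and progestin targets. The last were CRISPLD2, a secreted protein (2.68 ± 0.51, adjusted p = 0.030), the transcription factor ZBTB16 (1.36 ± 0.29, adjusted p = 0.036) and TSC22D3, a glucocorticoid-induced leucine zipper protein (0.79 ± 0.19, adjusted p = 0.047). None of 12 upstream genes, 16 stress genes or 8 RGS genes passed. The stroma markers were also higher in the luteal phases (fibroblast median 0.77 and smooth muscle median 0.93), with 1 of 8 and 0 of 5 passing. So were macrophage and dendritic markers (median 1.02, 3 of 7 passing) and mast cell markers (median 0.815, 2 of 4 passing). Squamous (median -0.06) and neutrophil (median -0.04) markers were not, and none of those passed. With the stroma score as a model term none of the 5 genes passed (limma adjusted p between 0.131 and 0.381), at differences of 0.39 (KLF6), 0.47 (ZFP36L2), 1.58 (CRISPLD2), 1.12 (ZBTB16) and 0.49 (TSC22D3). None passed with the GAPDH difference either, at 0.30 to 2.25 (adjusted p between 0.379 and 0.451).

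Against baseline, 25.8% of the named genes passed at DMPA 1D4 and 31.3% at 2D2. Of the 18 immediate early transcription factors 5 fell and 0 rose at 1D4, and 4 fell and 0 rose at 2D2. KLF4, a factor of squamous differentiation, FOSL2, an AP-1 subunit, MAFF and IER5 fell at both times, by 1.52 ± 0.27, 0.47 ± 0.12, 0.56 ± 0.16 and 0.50 ± 0.16 at 1D4, and IER2 fell at 1D4 by 0.44 ± 0.14 (limma adjusted p between 0.0021 and 0.025). KLF4, FOSL2 and MAFF were chosen for naming after their values were seen. Of the 12 upstream genes 3 fell at 1D4, and 3 fell and 2 rose at 2D2; MAP2K3, a kinase that activates p38, fell by 0.82 ± 0.18 and 0.87 ± 0.17, and ELK1, a partner of the serum response factor, by 0.85 ± 0.22 and 0.99 ± 0.21 (adjusted p between 0.0005 and 0.0088). Of the 22 feedback and secreted genes 3 rose and 1 fell at 1D4, and 4 rose and 3 fell at 2D2, THBS1 by 1.05 ± 0.23. Of the 16 stress genes 0 rose and 1 fell at 1D4, and 5 rose and 1 fell at 2D2. The one that fell at both times was CDKN1A, the cell cycle inhibitor p21 (-0.72 ± 0.21 and -0.75 ± 0.20), and TXNIP, an inhibitor of thioredoxin, had 0.72 ± 0.27 (adjusted p = 0.0504, not passing) at 1D4 and rose by 0.86 ± 0.26 at 2D2. Of the 8 RGS genes 2 fell at 1D4, RGS16 among them (-0.69 ± 0.18), and 1 rose and 2 fell at 2D2; of the 13 glucocorticoid and progestin targets 2 rose at each time, TSC22D3 by 0.80 ± 0.24 at 1D4 and 0.82 ± 0.23 at 2D2.

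Squamous markers, RNA quality and stroma moved with these lists as well. Of the 13 squamous markers measured, 11 fell at 1D4 and 12 at 2D2 (median -3.56 and -4.16). With the GAPDH difference in the model no list gene passed at 2D2, and at 1D4 2 of the 18 immediate early transcription factors still fell, KLF4 (-1.16) and FOSL2 (-0.30), with 1 upstream gene, MAP2K3 (-0.61), 1 feedback and secreted gene, the MAP kinase phosphatase DUSP5 (-1.83), and 1 RGS gene, RGS16 (-0.67). DUSP5 was named after its values were seen. At 2D2 the KLF4 difference in that fit was -0.41, that of FOSL2 -0.16 and that of TSC22D3 0.0084. With the stroma score KLF4 (-1.26, limma adjusted p = 0.044) was the only gene of these 6 lists that passed at 1D4, while at 2D2 each list kept its counts of genes that rose and fell. The part of the squamous markers was not tested.

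Over the 57 samples, as deviations from each animal's mean, the 6 genes varied together in part. FOS correlated with JUNB (r = 0.53) and ATF3 (0.45), JUNB with GADD45B (0.55), and DDIT4 with RGS2 (0.58), while RGS2 ran against JUNB (-0.50) and GADD45B (-0.46). FOS and GADD45B were close to unrelated (0.02). These correlations are descriptions over samples that share treatment, array quality and tissue content. Of all other named genes, IER2 was most like the standardised mean of FOS, JUNB and ATF3 (r = 0.80), followed by ZSWIM4 (0.68) and, at 0.63 each, NUP37, DUSP1 and SHKBP1. The genes most like GADD45B were DHRS9, a retinol and steroid dehydrogenase (0.76), MAP3K20, a stress-activated kinase (0.71), and FAM43A (0.71). DDIT4 was most like PDP1, a phosphatase of pyruvate dehydrogenase (0.67), DDIT3, the stress factor also called CHOP (0.67), and G0S2, a lipolysis inhibitor (0.66). RGS2 was most like KLHL9 (0.89), CPNE2 (0.86) and SH3BGRL (0.86).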

How the data were processed

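RNA of vaginal pinch biopsies was hybridised to 58 arrays. The authors deposited values on a log2 scale (lowest 1.371, highest 14.57), and the array medians spanned 6.07 to 6.25. The submitters' processing notes name affy and Partek; background correction and normalization are not given in the sources used here. Groups came from the labels, and biological replicates are separate animals. Averaging the late follicular duplicate array with its partner left 57 samples. The table holds 52865 probe sets. Filtering dropped its 158 controls and every probe set with a mean below the 40th percentile (log2 5.532), and 31624 were tested. The annotation gives 1 symbol to 24969 probe sets. No sequence was used.

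Differences were fitted with limma 3.58.1 in R 4.3.3 (statmod 1.5.0 for the random block). Samples of an animal are paired by the animal the labels name, which was a fixed block. Variances were moderated and p-values adjusted by Benjamini-Hochberg over all 31624 probe sets. Phase tests used the 28 baseline samples. Single values were also tested by exact two-sided sign-flip permutation over animals, in 6 within-animal differences for each of the 10 tested probe sets of the 6 genes, without adjustment. The fits were tested on simulated data. Alternatives were other filters, blocks, weights, scaling, probe sets and covariates, and leaving out each animal.

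The members and gene lists were chosen with earlier results of these data known. Beside the members, up to 3 genes a list were named, by smallest p in DMPA 2D2 minus 1D4, LNG 7th minus 5th and luteal minus follicular. The genes most correlated with the members over the 57 samples were named too: 5 for the mean of FOS, JUNB and ATF3, and 3 each for GADD45B, DDIT4 and RGS2.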

Additional observations from a re-analysis of the deposited data

Results flagged for a closer look

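Of 48 sets of values of these genes in groups of 4 to 10 samples, 4 held a sample far from the others; chance alone puts about 5% of such groups past the limit used. GADD45B accounted for 3 of them. In the early luteal phase BB173 was low at 9.005 (log2), with the next sample at 9.424. At DMPA 1D4 BB405 was low at 7.935, with the next at 8.604, and without this animal GADD45B no longer passed at that time. At LNG 5th BB4870 was high at 10.3, with the next at 9.166, and its array carries the mark (A-). For DDIT4, BB770 was low at DMPA 2D2 at 9.395, with the next sample at 10.2.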

How the results depend on the processing

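The DMPA minus baseline calls of the 6 genes were lost with the GAPDH covariate and, at 1D4, with the stroma score, although most of the differences stayed within 1.5 times their value, as given in the report; calls were also lost without single animals, at 1D4 and, for GADD45B, at 2D2. The covariate fits of the gene lists were added after seeing the data. All differences are log2 values from limma, counts are probe sets called, and the causes of these changes were not tested. Of the differences that passed, none changed sign under an alternative or without 1 animal. Precision is limited by the number of arrays.

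The samples are paired because they come from the same animals, so the animal was a fixed block. With no replicate block the counts were 382 for luteal minus follicular, 218 for late luteal minus early follicular, 108 for any phase, 0 for LNG 7th minus baseline and 39 for the change at DMPA 2D2 minus that at LNG 5th. Luteal minus follicular was then -0.024 for ATF3, -0.094 for GADD45B and 0.078 for DDIT4, FOS at LNG 5th minus baseline was -0.41 and DDIT4 at LNG 7th minus baseline -0.0043. Beside the FOS values of the report, DDIT4 at DMPA 1D4 lost its call without the block (0.47, adjusted p = 0.057). With the animal as a random block the counts were 3435, 2174 and 2445 for the same phase tests, 755 at LNG 5th and 532 at LNG 7th. Luteal minus follicular was -0.017 for ATF3, -0.081 for GADD45B and 0.027 for DDIT4, FOS at LNG 5th was -0.13, and FOS was -0.83 at DMPA 1D4 (adjusted p = 0.074) and 1.07 at 2D2 (adjusted p = 0.013).

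With array weights the counts were 5 for DMPA 2D2 minus 1D4, 1801, 89 and 2657 for the phase tests, 11812 for DMPA 1D4, 1708 for LNG 5th, 3572 for LNG 7th, 0 for the dose slope and 1 for the change between arms. LNG 7th minus 5th was -0.063 for JUNB, -0.0055 for GADD45B and 0.15 for DDIT4. Luteal minus follicular was -0.053 for FOS, -0.16 for ATF3 and -0.094 for GADD45B, and LNG 5th minus baseline was -0.014 for ATF3 and -0.0018 for DDIT4. GADD45B at 1D4 lost its call with array weights (-0.33, adjusted p = 0.085) and with no filter (adjusted p = 0.0505).

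With the GAPDH covariate the counts were 0 for the 3 phase tests, DMPA 2D2, LNG 7th and the dose slope, and 1631 for DMPA 1D4. DMPA 2D2 minus 1D4 was 0.051 for GADD45B and -0.14 for RGS2, luteal minus follicular -0.59 for FOS and -0.015 for ATF3, and late luteal minus early follicular -0.013 for RGS2. Against baseline JUNB was 0.19 at 2D2, DDIT4 -0.034 at LNG 5th and -0.084 at LNG 7th, RGS2 -0.30 at LNG 7th, and the GADD45B dose slope was 0.047. With the stroma score the counts were 2, 0 and 0 for the phase tests, 57 for DMPA 1D4, 0 for LNG 7th and 1 for the dose slope, FOS luteal minus follicular was -0.35 and ATF3 late luteal minus early follicular 0.15.

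With 1 probe set per gene the counts were 446, 14 and 121 for the phase tests, 3095 and 3721 for DMPA 1D4 and 2D2, 198 for LNG 5th, and 0 for LNG 7th and the dose slope; fewer features were tested. With no filter they were 1 for DMPA 2D2 minus 1D4, 574 and 139 for luteal minus follicular and any phase, 1 for LNG 5th and 4 for LNG 7th. With the filter at the 60th percentile they were 748 for LNG 5th, 560 for LNG 7th and 0 for the dose slope. With the baseline phases as separate groups they were 1808 for LNG 5th and 1950 for LNG 7th. With all 57 samples in the phase fit they were 542, 4110 and 1405, and DDIT4 luteal minus follicular was 0.021. With the arrays marked (A-) left out they were 2937 for LNG 5th and 69 for LNG 7th, DDIT4 was 0.52 for LNG 7th minus 5th, ATF3 0.060 for LNG 7th minus baseline, and the GADD45B change between arms 0.098. With arrays centred on their median the dose slope had 1 call, GADD45B luteal minus follicular was -0.014 and DDIT4 at LNG 7th -0.025. With the first array of the duplicate only, ATF3 at LNG 5th was -0.015 and LNG 7th had 0 calls. The second ATF3 probe set gave 0.0028 for LNG 7th minus 5th, -0.12 for luteal minus follicular, -0.15 for DMPA 2D2 minus baseline and -0.18 for LNG 5th minus baseline, and the third -0.083 for luteal minus follicular and -0.019 for LNG 5th minus baseline. The other GADD45B probe sets gave -0.084 and -0.17 for luteal minus follicular.

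Leaving out 1 animal at a time moved the counts over 0 to 2336 for luteal minus follicular, 0 to 523 for late luteal minus early follicular, 0 to 940 for any phase, 3091 to 8614 for DMPA 1D4, 5523 to 9960 for DMPA 2D2, 0 to 3186 for LNG 5th, 0 to 1094 for LNG 7th, 0 to 5 for the dose slope and 0 to 1 for DMPA 2D2 minus 1D4. The differences whose sign turned ranged, for luteal minus follicular, over -0.11 to 0.48 (FOS), -0.17 to 0.25 (ATF3), -0.091 to 0.11 (GADD45B) and -0.19 to 0.016 (DDIT4), and for late luteal minus early follicular over -0.47 to 0.21 (FOS). For LNG 7th minus 5th they ranged over -0.088 to 0.37 (JUNB), -0.076 to 0.19 (GADD45B) and -0.17 to 0.18 (DDIT4), for LNG 5th minus baseline over -0.081 to 0.13 (ATF3) and -0.032 to 0.18 (DDIT4), and for LNG 7th minus baseline over -0.13 to 0.26 (DDIT4). GADD45B ranged over -0.20 to 0.097 for DMPA 2D2 minus 1D4, -0.18 to 0.11 for the change between arms and -0.15 to 0.13 for the dose slope, and FOS over -0.71 to 0.10 for the dose slope.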
